A study of Mus musculus with 4 samples.

Results

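The genes described here are 10 brakes on the mitogen-activated protein (MAP) kinases, compared between BAL fluid ILC2s of mice given IL-33 and of mice given chronic house dust mite (HDM) extract. They were taken by gene symbol, and all 10 were found among the 24537 genes of each library: the dual-specificity phosphatase genes *Dusp1*, *Dusp2*, *Dusp4*, *Dusp5*, *Dusp6*, *Dusp10* and *Dusp16*, the Sprouty genes *Spry1* and *Spry2*, and *Spred1*. The 2 IL-33 libraries came from mice that received 3 doses of 0.5 µg IL-33 into the airways, and the 2 chronic HDM libraries from mice that received 25 µg HDM 3 times weekly over 5 weeks, with ILC2s taken 1 day after the last challenge in both. All mice carried the GATIR reporter, an IRES-YFP cassette in the 3′ untranslated region of *Gata3*, on a C57BL/6 background and were between 8 and 16 weeks old. The GEO labels give the IL-33 mice as Gata3-YFP/YFP and the HDM mice as Gata3-YFP/WT, and name the populations CD25High and CD25Low, while the study's methods speak of homozygous mice alone and of a sort on Lineage-, Sca-1+ and YFP+ without CD25. The number of mice behind a library is not given, so the p-values rest on a library-to-library spread that may be technical alone, and stimulus, genotype label and CD25 label cannot be told apart.

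MAP kinases relay signals of cytokine, growth factor and stress receptors through the ERK, JNK and p38 branches. Dual-specificity phosphatases (DUSPs) switch them off by removing phosphate from the threonine and the tyrosine of the activation loop, and many DUSP genes are themselves switched on by the kinases they silence. Sprouty and Spred proteins act further upstream, between the receptors and the Ras proteins that lead to ERK. In ILC2s, IL-33 signals through T1/ST2 to p38 and NF-kB, among other routes.

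Depth was 10696041 to 12054782 reads in genes after IL-33, against 15650730 to 16092298 after chronic HDM. Despite this, fewer genes had reads after chronic HDM, 10675 and 12134 against 13102 and 12895 after IL-33. Reads of 45S ribosomal RNA took 3.45% to 4.95% of these after IL-33, against 17.44% to 25.43% after chronic HDM. The HDM libraries also resembled each other less, with r = 0.825 across the tested genes against 0.975 for the IL-33 libraries (genes are not independent replicates). All 14 ILC2 markers fixed for this check, among them *Gata3* and *Il1rl1*, had reads in every library, but levels of some differed between the groups. *Gata3* was 12.2-fold and *Il1rl1* 2.68-fold higher after chronic HDM, and *Il2ra* 16.3-fold and *Il5* 4.62-fold higher after IL-33. These 4 passed the test (adjusted p = 0.00497 to 0.00994 from limma) and the other 10 did not. *Cd4*, *Cd8a* and *Ms4a1* had no reads in any library. Other markers of T cells, B cells, basophils, epithelium, eosinophils, neutrophils and dendritic cells had reads. *Cd3g* was at 76.0 and 101 RPKM (reads per kilobase of exon, scaled to library size) after IL-33, against 68.8 and 83.3 RPKM after chronic HDM. *Cd3d* and *Cd3e* were at 0 to 2.83 RPKM, and *Cd79b* at 38.4 and 27.4 against 8.74 and 6.67 RPKM. The eosinophil marker *Ear2* was at 20.6 and 3.47 against 51.5 and 43.0 RPKM, while *Epx* had no reads. The neutrophil marker *S100a8* was at 0.395 and 0 against 14.1 and 6.46 RPKM, while *S100a9*, *Ly6g*, *Mmp8* and *Ngp* had no reads. *Xcr1*, of dendritic cells, was at 6.42 and 6.16 against 3.66 and 2.38 RPKM. Among epithelial markers, *Epcam* was at 3.65 and 1.91 against 21.5 and 9.07 RPKM, while *Krt18* was at 4.28 and 2.88 against 0 and 0 RPKM. *Scgb1a1* was at 1.65 and 0.368 against 0 and 64.6 RPKM, *Sftpc* had reads in IL-33 replicate 1 alone and *Krt8* had none. *Mcpt8*, at 45.8 and 39.2 RPKM in the IL-33 libraries and without reads in the chronic HDM libraries, passed the test (adjusted p = 0.00665 from limma). Of 12 macrophage markers, 9 and 10 had reads after IL-33 with a summed level of 286 to 1250 RPKM, and 7 and 11 after chronic HDM with 3100 to 8620 RPKM.

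*Dusp1* lies on chr17:26505591-26508472 of mm10 (minus strand, 4 exons) and *Spry2* on chr14:105891947-105896819 (minus strand, 2 exons). The 250 bases upstream of the start of *Dusp1*, *Dusp5* and *Spry2* are shown from the RefSeq table of GRCm38.p6, the same assembly as mm10, because *Dusp1* and *Spry2* had the largest differences and *Dusp1* and *Dusp5* hold sites for factors that act downstream of cAMP and ERK. The windows are chr17:26508473-26508722 for *Dusp1* (minus strand), chr19:53528895-53529144 for *Dusp5* (plus strand, taken from a RefSeq start that lies 173 bases before that of the counted *Dusp5* transcript) and chr14:105896820-105897069 for *Spry2* (minus strand). Capitals mark the CRE (TGACGTCA, the site of CREB), its 5-base core (TGACG or CGTCA) and the CArG box, the site of serum response factor.
Dusp1: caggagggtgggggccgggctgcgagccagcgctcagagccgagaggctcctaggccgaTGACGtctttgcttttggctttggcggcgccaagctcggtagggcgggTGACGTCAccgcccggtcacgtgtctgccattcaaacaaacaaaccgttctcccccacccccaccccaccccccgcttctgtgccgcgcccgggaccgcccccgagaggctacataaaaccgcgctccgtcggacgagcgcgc
Dusp5: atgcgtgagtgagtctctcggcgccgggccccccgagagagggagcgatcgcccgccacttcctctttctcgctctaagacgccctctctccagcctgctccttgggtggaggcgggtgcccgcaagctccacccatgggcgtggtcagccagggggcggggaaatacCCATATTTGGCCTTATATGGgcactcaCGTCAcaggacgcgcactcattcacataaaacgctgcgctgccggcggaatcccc
Spry2: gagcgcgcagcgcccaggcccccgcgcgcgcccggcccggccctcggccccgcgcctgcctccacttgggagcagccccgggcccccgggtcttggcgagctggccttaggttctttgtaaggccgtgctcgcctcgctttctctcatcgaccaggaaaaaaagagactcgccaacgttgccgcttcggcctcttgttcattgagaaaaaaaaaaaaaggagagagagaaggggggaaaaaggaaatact
The *Dusp1* window holds a whole CRE from 143 to 136 bases upstream of the start and a further core from 191 to 187 bases upstream. The *Dusp5* window holds 2 adjoining CArG boxes, from 82 to 73 and from 72 to 63 bases upstream, followed by a CRE core at 55 to 51. The *Spry2* window holds none of these motifs. Among the 9 of the 10 genes with an entry in the RefSeq table, 1 held a whole CRE, 3 a CRE core, 1 a CArG box and 0 an AP-1 site (TGANTCA), searched on both strands. Among all 32851 promoter entries of the table, 1.55% held a whole CRE, 17.8% a core, 1.47% a CArG box and 6.75% an AP-1 site in windows of the same length. A match is a description of the sequence and no evidence of binding in these cells.

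After chronic HDM, *Dusp1* RNA was 9.89-fold higher than after IL-33 and passed the test, and it was the only tested brake gene that did. The test took genes averaging 2 RPKM or more over the 4 libraries, which 7 of the 10 did. Of these 7, 1 was higher after chronic HDM, 0 were higher after IL-33 and 6 did not pass (limma on log2(RPKM + 1), with thresholds of 0.01 for the adjusted p and 1 for the absolute log2 fold change). Over all 9523 genes tested, 0.536% passed as higher after chronic HDM and 2.80% as higher after IL-33. At an unadjusted p under 0.05, 4 of the 7 were higher after chronic HDM (*Dusp1*, *Spry2*, *Dusp2* and *Dusp5*) and 0 after IL-33, where 11.2% (1067) of all genes tested were higher after chronic HDM and 25.5% (2432) after IL-33. The median log2 fold change (IL-33 relative to chronic HDM) of the 7 was -1.41, beside 0.28 over all genes tested, and 6 of the 7 lay below 0, as did 39.1% of all genes tested. *Dusp4*, *Dusp16* and *Spred1* were below the minimum and were not tested. *Spry2*, *Dusp2* and *Dusp5* had means of 0.263, 0.757 and 1.31 RPKM after IL-33. They reached the minimum through chronic HDM (14.6, 5.73 and 5.33 RPKM). *Dusp4* (2.17 against 0.494 RPKM) and *Dusp16* (1.29 against 0.059 RPKM), both higher after IL-33, were left out by it. The median and the counts of the 7 thus rest partly on the minimum.

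**Figure D1:**
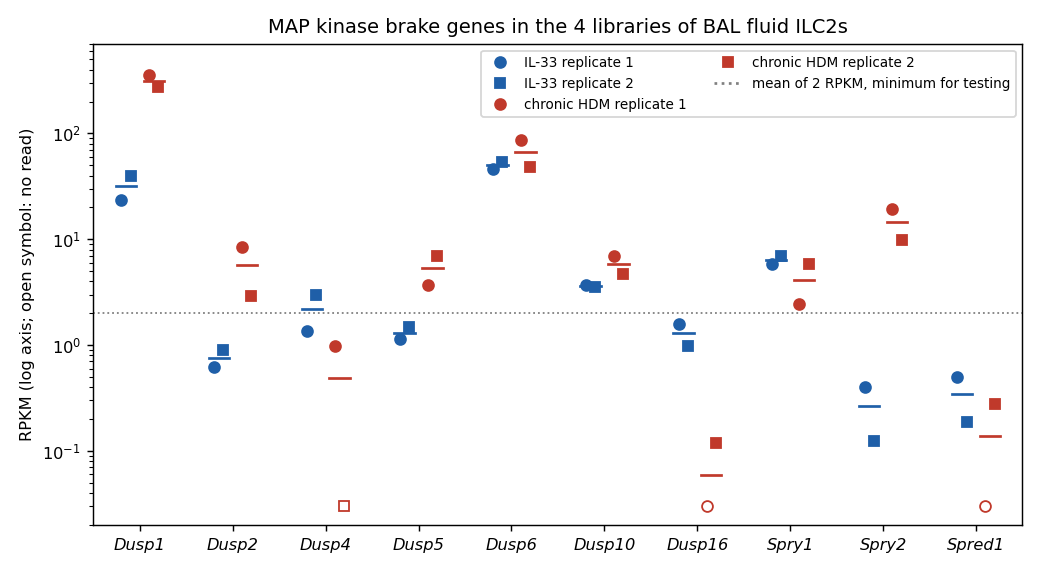
RPKM (log axis) of the 10 brake genes, with a symbol for each library, a bar at each group mean of 2 libraries and open symbols, drawn near the bottom, for libraries without a read. *Dusp1*, *Dusp2*, *Dusp5*, *Dusp10* and *Spry2* have both chronic HDM libraries above both IL-33 libraries, and *Dusp4*, *Dusp16* and *Spry1* have both IL-33 libraries above both chronic HDM libraries.

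*Dusp1*, *Dusp2*, *Dusp4* and *Dusp5* encode the inducible phosphatases of the nucleus. *Dusp1* (MKP-1), an early response gene whose product acts on p38, JNK and ERK, was at 23.6 and 40.0 RPKM in the IL-33 libraries and at 353 and 275 RPKM in the chronic HDM libraries. The groups did not overlap, and these values rest on 599 and 909 reads against 13155 and 9809. Mean levels were 31.8 ± 11.6 RPKM (SD, n = 2) with IL-33 against 314 ± 55.2 RPKM (SD, n = 2) with chronic HDM, a 9.89-fold difference. On the log2(RPKM + 1) scale the fold change was -3.30 (standard error 0.31, 95% interval -4.07 to -2.53, adjusted p = 0.00687 from limma). By level, *Dusp1* stood at rank 3503 and 2465 of 24537 genes in the IL-33 libraries and at rank 98 and 136 in the chronic HDM libraries. The call did not hold with 0.1 in place of 1 as pseudocount (adjusted p = 0.0148 from limma), without the minimum (0.0342) or without the trend in limma (0.0232). Nor did it hold with limma-voom on recovered reads (adjusted p = 0.0164), or without IL-33 replicate 1 or 2. The fold change ran from -3.74 to -2.93 over all 16 alternatives. For any 1 of these genes taken alone, 2 libraries against 2 allow no two-sided exact permutation p below 0.333.

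Some other genes that respond early to stimulation, and to the handling of cells, were also higher in the chronic HDM libraries. Of 16 immediate early and heat shock genes on a list without *Dusp1*, 14 were tested, of which 3 were higher after chronic HDM, 1 was higher after IL-33 and 10 did not pass. The shares of all genes tested that passed were 0.536% as higher after chronic HDM and 2.80% as higher after IL-33. At an unadjusted p under 0.05 (limma), 7 of the 14 were higher after chronic HDM and 2 after IL-33. Of all genes tested, 11.2% and 25.5% were. In 10 of the 14 both chronic HDM libraries lay above both IL-33 libraries and in 2 the reverse, beside 23.5% and 41.7% of all genes tested. *Fos* was at 20.7 and 40.5 against 233 and 224 RPKM (adjusted p = 0.00874), and *Jun*, which encodes the other part of the AP-1 dimer, at 15.4 and 15.7 against 133 and 87.7 RPKM (adjusted p = 0.00737). *Junb* was at 116 and 171 against 962 and 725 RPKM (IL-33 libraries first, adjusted p = 0.00700), while the chaperone gene *Hspa8* passed in the other direction at 594 and 524 against 154 and 118 RPKM (adjusted p = 0.00687, all from limma). The summed level of the list was 971 to 1000 RPKM after IL-33 and 1540 to 1990 RPKM after chronic HDM, and the inducible heat shock genes *Hspa1a* and *Hspa1b* on it were at 0 to 1.91 RPKM in all 4 libraries. *Egr1* was at 10.2 and 14.0 against 6.54 and 21.1 RPKM and *Atf3* at 6.32 and 7.39 against 1.85 and 10.2 RPKM (IL-33 libraries first). For both the groups overlapped, and neither gene passed. *Fosb*, at 0.274 and 0.493 against 12.4 and 11.0 RPKM, did not pass either (adjusted p = 0.0124 from limma). Nor did *Btg2*, at 12.3 and 13.8 against 51.7 and 42.8 RPKM (adjusted p = 0.0143 from limma). The part of cell handling in the level of *Dusp1* was not tested. Of the macrophage markers, 5 of 12 had no reads in chronic HDM replicate 1, the library with the higher *Dusp1* level (*Mrc1*, *Marco*, *Apoe*, and *Itgam* and *Siglecf*, which had none in 3 of the 4 libraries). *Adgre1*, which encodes F4/80, was highest in that same library, at 9.25 RPKM against 3.43 RPKM in chronic HDM replicate 2 and 0 and 0.0260 RPKM in the IL-33 libraries. *Lyz2* was at 70.2 and 17.2 RPKM in the IL-33 and 933 and 2260 RPKM in the chronic HDM libraries and *Chil3* at 1160 and 261 against 2140 and 6160 RPKM. Of the 12 markers, 9 were tested and 0 passed, with 3 higher after chronic HDM at an unadjusted p under 0.05 (limma), beside 11.2% of all genes tested. Their median log2 fold change was -2.02, beside 0.28 over all genes tested. Their part in the brake gene levels was not tested. In these bulk libraries, fewer cells with a transcript and less RNA in each cell cannot be told apart.

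*Dusp2* (PAC-1), a phosphatase known from activated lymphocytes, was at 0.616 and 0.898 RPKM after IL-33, against 8.52 and 2.93 RPKM after chronic HDM. Both chronic HDM libraries lay above both IL-33 libraries but differed 2.90-fold from each other. The values rest on 13 and 17 reads after IL-33, against 264 and 87 after chronic HDM. The log2 fold change was -1.80 (standard error 0.62, 95% interval -3.36 to -0.25) and did not pass (adjusted p = 0.0980 from limma). Without chronic HDM replicate 2 it was -2.44 and without replicate 1 -1.17, and without IL-33 replicate 1 or 2 it was -1.69 or -1.92. *Dusp5*, whose product is specific for ERK and holds it in the nucleus, was at 1.13 and 1.48 RPKM after IL-33, against 3.71 and 6.95 RPKM after chronic HDM. Here too the groups did not overlap, and replicate 2 was the higher library of the chronic HDM pair, where for *Dusp2* it was replicate 1. The *Dusp5* values rest on 17 and 20 reads after IL-33, against 82 and 147 after chronic HDM. The log2 fold change of -1.41 (standard error 0.52) did not pass (adjusted p = 0.115 from limma). The counted *Dusp5* transcript has 1150 bases of exon against 2473 in GENCODE M21, and exons of an antisense gene, *AC137853.2*, overlap the locus, whose reads cannot be told apart without strand.

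*Dusp4* (MKP-2), which acts on ERK and JNK, was at 1.36 and 2.99 RPKM after IL-33, against 0.988 and 0 RPKM after chronic HDM. These are 43 and 85 reads against 46 and 0, so that 1 of the 2 chronic HDM libraries held *Dusp4* reads and the other none. A library without a read allows up to 3 reads, or 0.0674 RPKM for *Dusp4* in chronic HDM replicate 2 (counting error only, in amplified cDNA without molecular identifiers). In a fit without the minimum, its log2 fold change was 1.12 (standard error 0.52, adjusted p = 0.269 from limma).

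*Dusp6* (MKP-3), the cytoplasmic phosphatase of ERK, was at 46.6 and 53.5 RPKM after IL-33, against 86.9 and 48.0 RPKM after chronic HDM. The groups overlapped, with chronic HDM replicate 2 between the IL-33 libraries. From 1704 and 1754 reads against 4662 and 2464, the log2 fold change was -0.37 (standard error 0.33, 95% interval -1.20 to 0.47, adjusted p = 0.474 from limma), an interval that leaves room for a difference of up to -1.20 in the direction of *Dusp1*. Without chronic HDM replicate 1 the fold change was 0.06.

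The balance between the most abundant nuclear and the cytoplasmic phosphatase gene was the reverse in the 2 groups. Within a library, which makes the ratio independent of how libraries are scaled, *Dusp1* was at 0.507 and 0.747 times the level of *Dusp6* after IL-33 and at 4.07 and 5.74 times with chronic HDM, in RPKM. The summed level of the 10 genes was 85.3 and 111 RPKM after IL-33, against 482 and 354 RPKM after chronic HDM. *Dusp6* made up 54.6% and 48.4% of this sum after IL-33, against 18.0% and 13.6% after chronic HDM, and *Dusp1* 27.7% and 36.1% against 73.3% and 77.8%. Without *Dusp1* the sums were 61.7 and 70.6 RPKM against 129 and 78.5 RPKM.

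**Figure D2:**
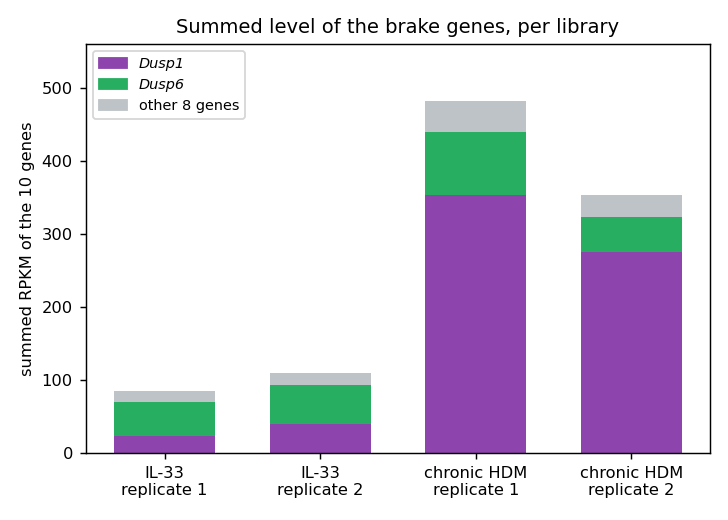
Summed RPKM of the 10 brake genes in each of the 4 libraries (linear axis from 0), divided into *Dusp1*, *Dusp6* and the other 8 genes. *Dusp6* is the largest part in both IL-33 libraries, and *Dusp1* in both chronic HDM libraries (353 of 482 and 275 of 354 RPKM).

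*Dusp10* and *Dusp16* encode phosphatases that prefer JNK and p38 over ERK, and their values lay on opposite sides. *Dusp10* (MKP-5) was at 3.70 and 3.56 RPKM after IL-33, against 6.92 and 4.66 RPKM after chronic HDM. The groups did not overlap, and the log2 fold change of -0.53 (standard error 0.44, 95% interval -1.63 to 0.56) did not pass (adjusted p = 0.425 from limma). *Dusp16* (MKP-7) was at 1.59 and 0.988 RPKM after IL-33, against 0 and 0.118 RPKM after chronic HDM. This was 86 and 48 reads against 0 and 9, so that both IL-33 libraries held more *Dusp16* reads than both chronic HDM libraries. The means differed 21.8-fold. The chronic HDM libraries were deeper but held reads of fewer genes, so a count of 0 in them may not mean that the transcript was absent. With the reads of each group summed, the ratio per mapped read had a 95% counting interval of 11.5 to 50.4 (exact, counting error only, which leaves out the spread between libraries). *Dusp16* was below the minimum, and in a fit without the minimum its log2 fold change was 1.10 (standard error 0.23, unadjusted p = 0.00855, adjusted p = 0.0684 from limma).

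*Spry1* and *Spry2* encode Sprouty proteins, which are induced by ERK signalling and in turn hold back its activation by growth factor receptors. *Spry2* was at 0.403 and 0.123 RPKM after IL-33, against 19.4 and 9.76 RPKM after chronic HDM. The groups stood far apart, at 11 and 3 reads against 775 and 374. The mean was 55.3-fold higher after chronic HDM, and the ratio of summed reads per mapped read had a 95% counting interval of 32.2 to 99.4. The log2 fold change was -3.56 (standard error 0.53, 95% interval -4.89 to -2.22), the widest difference of the 7 tested genes and the 20th of all genes in that direction, and it missed the threshold (adjusted p = 0.0132 from limma). At an adjusted p under 0.05 *Spry2* passed together with *Dusp1*, where 4.78% of all genes tested passed as higher after chronic HDM. The added 1 shrinks the change of a gene near 0 RPKM, and the log2 fold change of *Spry2* was -2.81 with 2 added, -5.37 with 0.1 added (adjusted p = 0.0117 and 0.0250) and -5.91 with limma-voom on recovered reads, where its standard error was 2.01 and it did not pass at 0.05 either (adjusted p = 0.114).

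*Spry1* was at 5.80 and 6.90 RPKM after IL-33, against 2.46 and 5.79 RPKM after chronic HDM. The groups were separated by the margin between 5.79 and 5.80 RPKM only, and the log2 fold change of 0.60 (standard error 0.50, 95% interval -0.66 to 1.86) did not pass (adjusted p = 0.436 from limma). It was 0.11 without chronic HDM replicate 1 and 1.08 without replicate 2. Exons of *Gm42922* on the opposite strand overlap *Spry1*, and their reads cannot be told apart. *Spry1* was at 14.4 and 56.1 times the level of *Spry2* within the IL-33 libraries and at 0.127 and 0.593 times within the chronic HDM libraries, in RPKM, so that the more abundant Sprouty gene was *Spry1* in both of the former and *Spry2* in both of the latter. *Spred1*, whose product recruits neurofibromin to Ras, was at 0.496 and 0.189 RPKM after IL-33, against 0 and 0.276 RPKM after chronic HDM, from 41 and 14 reads against 0 and 32. The groups overlapped, and no difference was detectable at this depth (adjusted p = 0.506 from limma in the fit without the minimum).

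**Figure D3:**
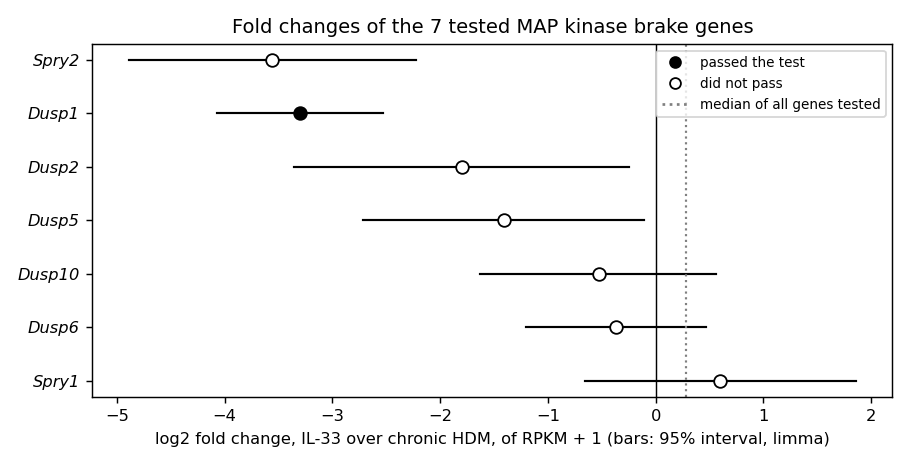
Log2 fold change (IL-33 relative to chronic HDM, of RPKM + 1) of the 7 tested brake genes with 95% intervals from limma over 4 libraries, filled where the gene passed and with a dotted line marking the all-gene median (0.28). The intervals of *Spry2*, *Dusp1*, *Dusp2* and *Dusp5* lie below 0, and only *Dusp1* passed the adjusted threshold.

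In order of level (RPKM), *Dusp6* came before *Dusp1*, *Spry1*, *Dusp10*, *Dusp4*, *Dusp5*, *Dusp16*, *Dusp2*, *Spred1* and *Spry2* after IL-33, with means from 50.0 down to 0.263 RPKM. Neighbours whose libraries overlapped in this order were *Dusp4* and *Dusp5*, *Dusp5* and *Dusp16*, and *Spred1* and *Spry2*. After chronic HDM the order was *Dusp1*, *Dusp6*, *Spry2*, *Dusp10*, *Dusp2*, *Dusp5*, *Spry1*, *Dusp4*, *Spred1* and *Dusp16*, from 314 down to 0.0590 RPKM. Here the libraries of *Dusp10*, *Dusp2*, *Dusp5* and *Spry1* overlapped from neighbour to neighbour, as did those of *Dusp4*, *Spred1* and *Dusp16*. *Spry2* went from the lowest of the 10 after IL-33 to the third after chronic HDM.

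Of the 7 tested genes, 5 had both chronic HDM libraries above both IL-33 libraries and 1 the reverse, where 23.5% and 41.7% of all genes tested did. Over all 10 genes, with those below the minimum, the counts were 5 and 3, and 2 overlapped. Spread within the groups was unequal. The higher over the lower IL-33 library was 1.04-fold (*Dusp10*) to 1.69-fold (*Dusp1*) for the tested genes other than *Spry2* (3.28-fold, from 3 and 11 reads), and the same ratio in the chronic HDM libraries was 1.28-fold (*Dusp1*) to 2.90-fold (*Dusp2*). Chronic HDM replicate 1 was the higher library for *Dusp1*, *Dusp2*, *Dusp6*, *Dusp10* and *Spry2* and replicate 2 for *Dusp5* and *Spry1*. Under median-of-ratios scaling, quantile normalization or scaling without 45S ribosomal RNA, which moved the median of all genes by -0.21, -0.29 and -0.26 on the log2 scale, all 7 kept their direction and *Dusp1* still passed. The genes closest to *Spry2* over the 4 libraries, by Euclidean distance of centred log2(RPKM + 1), were *Snora52* (0.27), *Mertk* (0.29) and *Dleu2* (0.30). *Spry1* had the highest fold change toward IL-33 of the 7 tested genes. Closest to *Spry1* were *Apoa1bp* (0.03), *9330175E14Rik* (0.08) and *Rab3gap2* (0.09). With 4 libraries this is a description only.

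**Figure D4:**
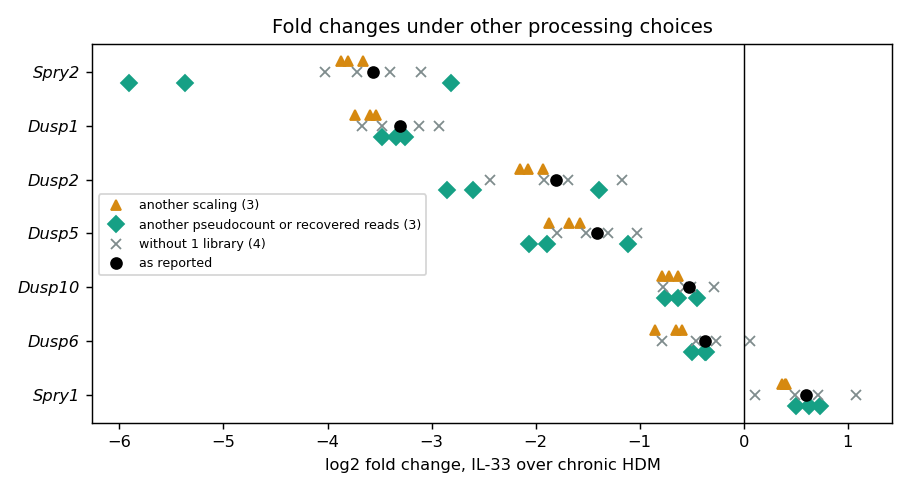
Log2 fold change (IL-33 relative to chronic HDM) of the 7 tested brake genes as reported (circles), under 3 other scalings (triangles), with another pseudocount or on recovered reads (diamonds) and without 1 library (crosses). *Spry2* ran from -5.91 to -2.81 and *Dusp1* from -3.74 to -2.93, and *Dusp6* crossed 0 without chronic HDM replicate 1 (0.06).

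Like 6 of the 7 tested brakes, most other genes of the MAP kinase pathway did not pass the test. Of all genes tested, 0.536% passed as higher after chronic HDM and 2.80% as higher after IL-33. Counts at an unadjusted p under 0.05 in these lists stand beside 11.2% of all genes tested as higher after chronic HDM and 25.5% as higher after IL-33. Of the other typical MAP kinase phosphatase genes, only *Dusp7* was tested, at 2.45 and 2.95 against 1.78 and 4.76 RPKM (IL-33 libraries first, adjusted p = 0.901 from limma). *Dusp8* had no reads in any library, and *Dusp9* was at 0.340 and 0.443 RPKM in the IL-33 libraries and without reads in the others. None of the other 4 Sprouty and Spred genes reached 2 RPKM, and *Spry3* and *Spry4* had no reads. Of 10 atypical DUSP genes, 9 were tested and 0 passed (2 at an unadjusted p under 0.05, both higher after IL-33), with *Dusp11*, an RNA phosphatase, at 17.7 and 17.6 against 27.6 and 21.6 RPKM and *Dusp12* at 15.0 and 15.6 against 31.5 and 18.7 RPKM. *Dusp14* had the largest difference of the list, in the other direction, at 17.0 and 14.9 against 0 and 1.44 RPKM (log2 fold change 3.44, adjusted p = 0.0175 from limma). The median log2 fold change of the list was 0.73. Of 6 tyrosine and PP2C type phosphatases of MAP kinases, 4 were tested and 0 passed (0 at an unadjusted p under 0.05). *Ptpn7*, the haematopoietic phosphatase of ERK and p38, was at 92.8 and 128 against 107 and 108 RPKM (log2 fold change 0.02, adjusted p = 0.960 from limma).

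Among the kinase cascades themselves, no gene passed. Of 21 genes of the Ras and ERK cascade, 17 were tested and 0 passed, with 1 in each direction at an unadjusted p under 0.05 and a median log2 fold change of 0.28, equal to that of all genes tested. *Pebp1*, which encodes an inhibitor of the cascade, was at 208 and 194 against 112 and 118 RPKM (adjusted p = 0.0306 from limma). Of 22 genes of the p38, JNK and ERK5 cascade, 18 were tested and 0 passed (4 higher after chronic HDM and 3 after IL-33 at an unadjusted p under 0.05, median -0.40). *Mapkapk3*, a kinase activated by p38, was at 132 and 154 against 269 and 198 RPKM (adjusted p = 0.0831), and *Map2k3*, which activates p38, at 56.5 and 62.0 against 93.1 and 78.5 RPKM (adjusted p = 0.145, both from limma). Of 13 genes known as outputs of ERK, 7 were tested, and *Fos* alone passed, as higher after chronic HDM, with 3 others higher after IL-33 and 0 others higher after chronic HDM at an unadjusted p under 0.05 and a median of 0.16.

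**Figure D5:**
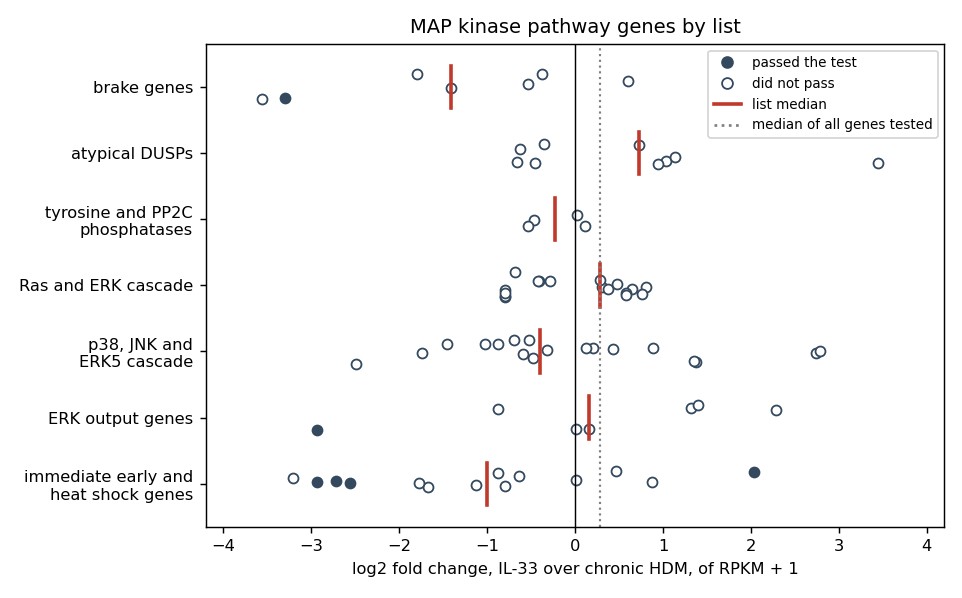
Log2 fold change (IL-33 relative to chronic HDM, of RPKM + 1) of each tested gene of the brakes and of 6 lists of the MAP kinase pathway, filled where the gene passed, with a bar at each median and a dotted line marking the all-gene median (0.28). The brake genes have a median of -1.41 and the immediate early and heat shock genes -0.99, and the other lists run from -0.40 to 0.73.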

How the data were processed

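Libraries of BAL fluid ILC2s numbered 2 from mice given IL-33 and 2 from mice given chronic HDM. The authors made Smart-seq2 libraries, aligned single 51-base reads to mm10 with HISAT2 (2.0.4 per the labels) and deposited RPKM values per gene, which HOMER had counted over exons of a single RefSeq transcript per gene, as the file headers show. Multiplied by exon length, 99.0% to 100.0% of values above 0 lay within 0.1 of a whole read, which gave the reads and depths quoted. Positions count from 1. Genes averaging 2 RPKM or more over the 4 libraries were tested with limma (3.58.1, R 4.3.3) on log2(RPKM + 1), two-sided, with an intensity trend and Benjamini-Hochberg adjustment over all 9523 genes, and called at the study's thresholds (adjusted p under 0.01, log2 fold change over 1). The authors' own test, DESeq2 on counts, was not repeated. The procedure was tested on simulated data. Alternatives covered pseudocount, minimum, scaling, variance model, replicate block, threshold and leaving out each library. The 10 genes and all lists were chosen with earlier results of these data known. All 10 were named, with, from each list, up to 4 genes that passed or else the 2 with the highest mean; other genes, such as the marker genes, *Hspa1a*, *Hspa1b*, *Dusp14*, *Dusp8*, *Dusp9*, *Spry3* and *Spry4*, were named after their values were seen, and a gene that the rule names is not reported here. Figures were drawn with matplotlib 3.10.9.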

Additional observations from a re-analysis of the deposited data

How the results depend on the processing

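Over the 16 alternatives, *Dusp2*, *Dusp5*, *Dusp10*, *Spry1*, *Spry2* and *Dusp1* kept their direction in every fit that tested them, and *Dusp6* turned only without chronic HDM replicate 1 (0.06). *Dusp1* no longer passed with a pseudocount of 0.1 (-3.34), with limma-voom on recovered reads (-3.48), without the trend (-3.30) or with no minimum (-3.30), under each of which 0 genes passed in either direction and the number of brake genes higher after chronic HDM went from 1 to 0, with 4, 2, 4 and 4 of them at an unadjusted p under 0.05 (in all genes, 967 to 1109 higher after chronic HDM and 2088 to 2904 after IL-33). *Spry2* passed with the replicate block (-3.56) and at an adjusted p under 0.05 (-3.56), and 2 brake genes then passed. Without 1 library the fold changes ran from -3.67 to -2.93 for *Dusp1*, -4.02 to -3.10 for *Spry2*, -2.44 to -1.17 for *Dusp2*, -1.79 to -1.03 for *Dusp5*, -0.78 to -0.29 for *Dusp10*, -0.79 to 0.06 for *Dusp6* and 0.11 to 1.08 for *Spry1*, and 0 to 3 brake genes passed as higher after chronic HDM: 0 without either IL-33 library, 2 without chronic HDM replicate 1 and 3 without replicate 2. Where a library was left out, its partner was taken to vary as much as the other group did, although the spreads differed (SD of the difference within a pair 0.434 after IL-33 and 1.13 after chronic HDM), and over all genes 0 to 1872 passed as higher after IL-33 and 0 to 598 as higher after chronic HDM. With all 4 libraries, the genes higher after IL-33 numbered 267 and those higher after chronic HDM 51. They became 502 and 107 with a minimum of 5 RPKM (at which *Dusp2*, *Dusp5* and *Dusp10* were not tested), 148 and 119 with quantile normalization, 53 and 29 without 45S ribosomal RNA, 987 and 267 with the replicate block and 1311 and 455 at an adjusted p under 0.05, and with median-of-ratios scaling 85 were higher after IL-33. Replicate numbers did not pair the libraries (correlation of the replicate differences -0.0385 over genes), so the replicate block is given here only. Low reads limit *Spry2*, *Dusp2* and *Dusp5* after IL-33 and *Dusp4*, *Dusp16* and *Spred1* after chronic HDM.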
